A study of Arabidopsis thaliana with 6 samples.

Results

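The CBF factors and the cold-regulated (COR) genes that they control were examined in whole Arabidopsis thaliana plants, comparing the Columbia-0 wild type with cax1cax3, a double mutant of CAX1 and CAX3 in the same ecotype. They were represented by 8 of the 22746 probe sets tested: CBF1 (254074_at, AT4G25490), CBF2 (254075_at, AT4G25470), CBF3 (254066_at, AT4G25480), COR15A (263497_at, AT2G42540), COR15B (263495_at, AT2G42530), RD29A (248337_at, AT5G52310), KIN1 (246481_s_at, AT5G15960) and COR47 (259570_at, AT1G20440). They were chosen by gene identity, as genes on whose induction CAX1 is known to act. There were 3 arrays of each genotype. All plants, of both genotypes, spent 10 days on 0.5X MS medium with 0.5% sucrose and 3 weeks in soil at 22 °C with 16 hours of light, and the age label is 40 days. The labels used here name no alleles for the mutant. No cold treatment is described for either genotype, and sampling followed the appearance of necrotic lesions on the cax1cax3 plants. The values are levels of RNA in plants kept warm, and they say nothing about induction by cold. In a whole plant, fewer cells of a type and less RNA per cell cannot be told apart.

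CBF1, CBF2 and CBF3 are closely related transcription factors of the AP2/ERF family that switch on within the early phase of a cold exposure. They bind the CRT/DRE element in the promoters of COR genes, whose small hydrophilic products protect membranes and proteins during freezing and drying. A rise of cytosolic calcium is among the earliest responses to cold, and CAX1 and CAX3 are exchangers of the vacuolar membrane that carry calcium from the cytosol into the vacuole against protons. Loss of CAX1 is known to strengthen the induction of CBF and COR genes when plants are chilled. In the RefSeq gene table CBF2, CBF3 and CBF1 lie side by side with 0 protein-coding genes between them, and so do COR15B and COR15A, and KIN1 and KIN2.

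In these unchilled plants none of the CBF or COR probe sets passed the test for a difference between the genotypes. By limma's moderated test, 0 of 8 were called at an adjusted p under 0.05, where 5.62% of all probe sets were called, 2.34% higher and 3.28% lower in the mutant. At an unadjusted p under 0.05 there were 2 of 8, CBF2 and RD29A, and 19.5% of all probe sets. The mutant-minus-wild-type differences ran from -0.68 for CBF3 to 0.63 for RD29A on the log2 scale, with a median of 0.23, against 0.01 for all probe sets. Of the 8 differences, 5 were positive, as were 52.5% of those of all probe sets. Separate cultures or plants behind the 3 samples of a genotype are not stated, so the p-values reflect only sample-to-sample spread, which could be technical.

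**Figure D1:**
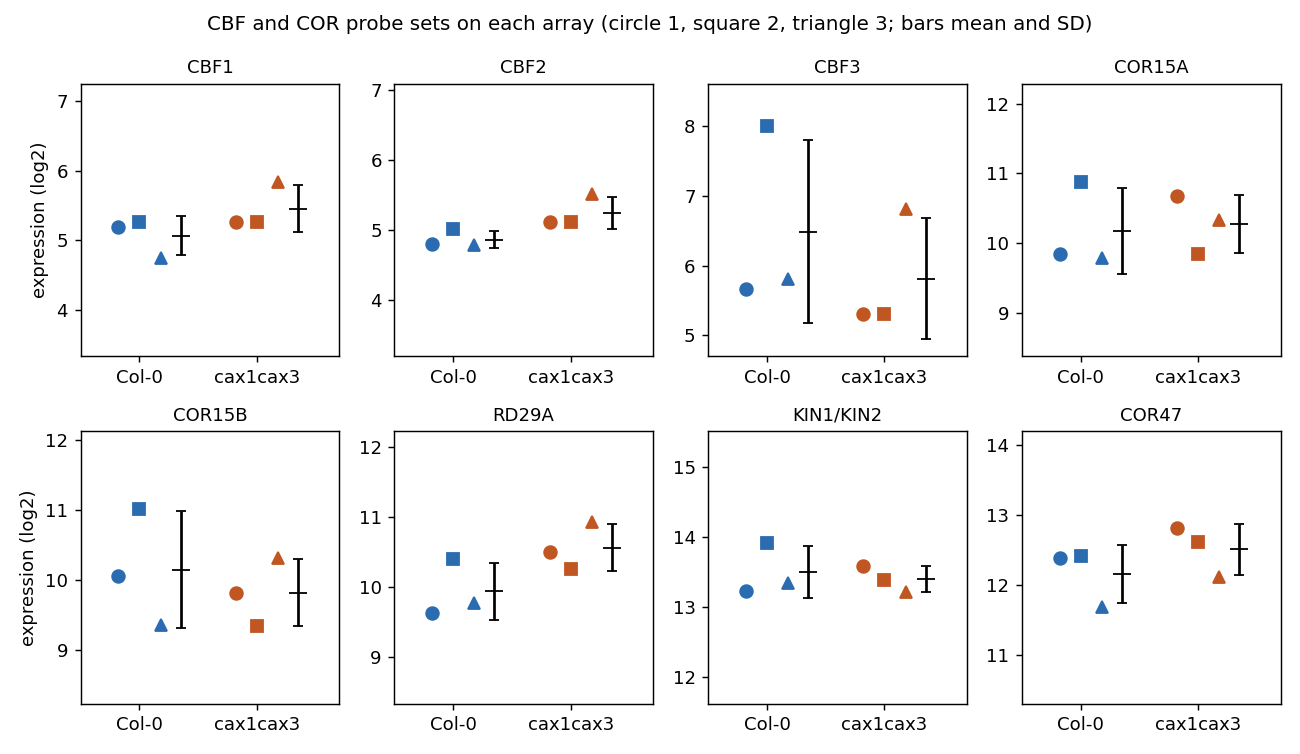
Log2 expression of the 8 probe sets (vertical axes, each panel spanning an equal log2 range around its own level) on the 3 Col-0 arrays (blue) and the 3 cax1cax3 arrays (orange), with the mean and SD of each genotype in black. The square of Col-0 array 2 is the highest blue point in all 8 panels, and CBF2 is the only panel in which the genotypes do not overlap.

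The CBF factors gave dim signals, for CBF1 and CBF2 throughout and for CBF3 on most arrays, and CBF3 was the most variable of the 8. Background was judged from 27 control probe sets for bacterial transcripts, with a 95th percentile of 4.70 and a highest value of 5.81. CBF1 read 5.19, 5.26 and 4.75 on wild-type arrays 1, 2 and 3 and 5.27, 5.26 and 5.84 on the mutant arrays. CBF2 read 4.80, 5.01 and 4.78 in the wild type and 5.11, 5.11 and 5.51 in the mutant. Both therefore lay above that percentile on all 6 arrays, below the median of all probe sets on each, and, apart from CBF1 on mutant array 3 (5.84), below the highest bacterial value. The wild-type means were 5.07 ± 0.28 for CBF1 and 4.86 ± 0.13 for CBF2 (SD, n = 3), and the mutant means were 5.45 ± 0.33 and 5.24 ± 0.23.

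CBF2 was the 1 member whose arrays did not overlap between genotypes, with every mutant array above every wild-type array, and 11.6% of all probe sets showed this order. Its difference was 0.38 ± 0.14 (log2, SE), a fold of 1.30 with a 95% interval of 1.03 to 1.65 (limma adjusted p = 0.209). The difference of CBF1 was of like size, 0.39 ± 0.21, with an interval of 0.925 to 1.85-fold (limma adjusted p = 0.382). For CBF1 it lay mainly in the third pair of arrays: the same-numbered arrays differed by 0.07, 0.00 and 1.09. For CBF2 they differed by 0.30, 0.10 and 0.73.

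CBF3, also called DREB1A, read 5.66, 8.00 and 5.80 on the wild-type arrays and 5.31, 5.31 and 6.81 on the mutant arrays. The high wild-type array was array 2 and the high mutant array was array 3. The remaining 4 arrays lay between 5.31 and 5.80, above the bacterial 95th percentile but below the highest bacterial value of 5.81. The low end of each spread below was thus near background. The spread within the wild type was 5.05-fold from the lowest to the highest array, and within the mutant 2.84-fold. The residual SD of CBF3, 1.11 log2 units, exceeded that of 99.5% of all probe sets. Its genotype difference was -0.68 ± 0.70 (log2, SE), with a 95% interval from 0.196 to 2.00-fold and a limma adjusted p of 0.681. Without wild-type array 2 the difference turned to 0.08 ± 0.48 (limma adjusted p = 0.971), and without mutant array 3 it was -1.18.

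A probe set shared by DREB2C, a drought- and heat-related relative of the CBF factors, and AT2G40350 had a difference of 0.01 (limma adjusted p = 0.990). Its signal was dim, from 5.08 to 5.91, and below the median of all probe sets on every array. Apart from wild-type array 2 (5.91), it lay below the highest bacterial value of 5.81. No probe set was named for CBF4, DDF1 or DDF2, which are not analysed here.

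Among the COR genes, the adjacent pair COR15A and COR15B, which encode protective proteins of the chloroplast stroma, both peaked on wild-type array 2. COR15A read 9.85, 10.88 and 9.79 in the wild type and 10.67, 9.84 and 10.33 in the mutant. COR15B read 10.06, 11.02 and 9.36 in the wild type and 9.81, 9.34 and 10.31 in the mutant. The genotypes overlapped in both genes, and the order of the mutant arrays differed, with COR15A highest on array 1 and COR15B on array 3. Their differences were 0.10 ± 0.34 for COR15A and -0.33 ± 0.44 for COR15B (log2, SE), with 95% intervals from 0.611 to 1.88-fold and from 0.387 to 1.63-fold (limma adjusted p = 0.924 and 0.757). Neither direction was stable. Without wild-type array 2 the values were 0.46 and 0.11, and without mutant array 1 that of COR15A was -0.09.

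RD29A, which responds to drought, salt and abscisic acid as well as to cold and is widely used as a stress reporter, had the largest positive difference of the 8. It read 9.63, 10.39 and 9.77 in the wild type and 10.50, 10.26 and 10.92 in the mutant. The groups overlapped only through wild-type array 2, which lay above mutant array 2. The means were 9.93 ± 0.41 and 10.56 ± 0.33 (SD, n = 3). The difference of 0.63 ± 0.25 (log2, SE) was a fold of 1.54, with a 95% interval of 1.03 to 2.32 and a limma adjusted p of 0.227. Without wild-type array 2 it was 0.86 (adjusted p = 0.137), and it stayed positive without any other single array, the lowest value being 0.45.

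KIN1 and its neighbour KIN2 encode small hydrophilic proteins induced by cold and abscisic acid, and 1 probe set reads both, so their RNAs cannot be separated. It read 13.23, 13.92 and 13.35 in the wild type and 13.58, 13.39 and 13.21 in the mutant. The difference was -0.10 ± 0.20 (log2, SE), an interval of 0.668 to 1.30-fold (limma adjusted p = 0.850). COR47, which encodes a dehydrin, read 12.39, 12.42 and 11.68 in the wild type and 12.82, 12.62 and 12.11 in the mutant. Its lowest array in each genotype was array 3, and its difference within each number had the same sign: 0.43, 0.20 and 0.43. The difference was 0.35 ± 0.26 (log2, SE), an interval of 0.831 to 1.96-fold, with a limma adjusted p of 0.536 and of 0.0872 with the replicate number as a block, a fit that called 0 of 8 members and 9.78% of all probe sets.

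**Figure D2:**
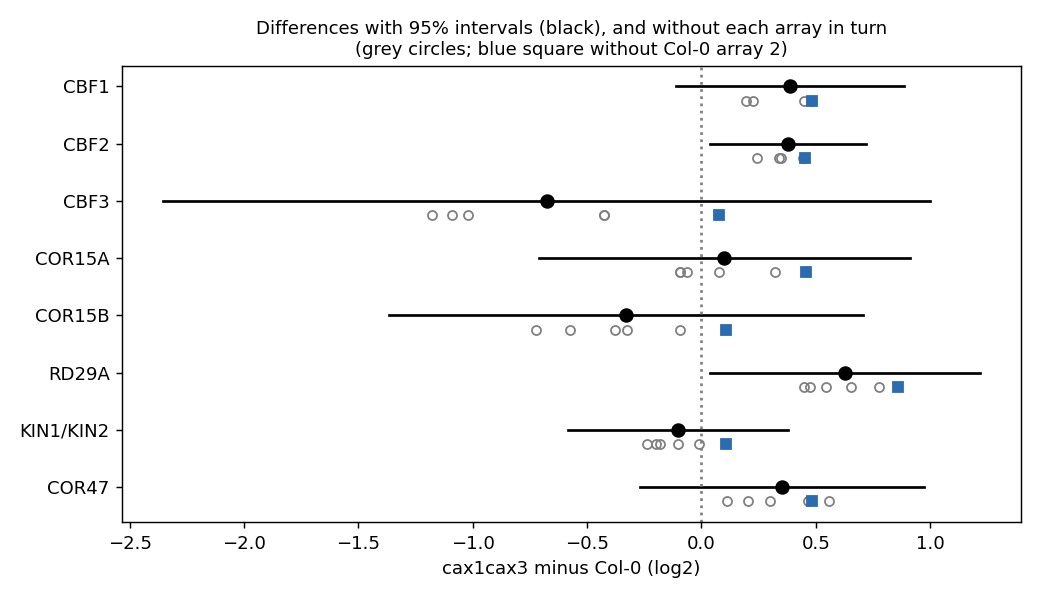
Mutant-minus-wild-type difference of each probe set in log2 units (horizontal axis) with its 95% interval from limma (black), and the same difference with each array left out in turn (grey circles), the blue square being without Col-0 array 2. The blue squares all lie to the right of 0, from 0.08 for CBF3 to 0.86 for RD29A, while CBF3 has the widest interval. Col-0 array 2 was the highest Col-0 array for every member, so leaving it out could only raise the difference.

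The intervals show which sizes of difference lay outside the range measured with 3 arrays against 3. A 2-fold higher level in the mutant lay outside the 95% interval for CBF1, CBF2, COR15A, COR15B, KIN1/KIN2 and COR47, at the upper edge of it for CBF3 and inside it for RD29A. A level 2-fold lower lay inside the interval for CBF3 and COR15B and outside it for the other members. These intervals are not adjusted for the number of probe sets and carry the same spread between samples as the tests. CBF1 and CBF2 read close to background, as did CBF3 on most arrays. For these the intervals describe the measured signal and may not bound the change in RNA.

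The members varied more between arrays of 1 genotype than most transcripts did. Their median residual SD was 0.38 log2 units against 0.17 for all probe sets, and 7 of 8 lay above the 80th percentile of residual SD. The exception was the dim CBF2, at the 57.6th percentile. Wild-type array 2 held the highest wild-type value of all 8 members, whereas for 29.8% of all probe sets that array was the highest of the 3. It exceeded the mean of the other wild-type arrays by 2.27 log2 units for CBF3, 1.31 for COR15B, 1.06 for COR15A, 0.69 for RD29A, 0.63 for KIN1/KIN2, 0.38 for COR47, 0.29 for CBF1 and 0.22 for CBF2. An excess above 1 log2 unit occurred in 116 probe sets, 0.51% of all, of which 3 were members, and CBF3 ranked 6th among all 22746. This order was noticed in the values and carries no test.

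In the mutant the highest array was not the same for all members. Mutant array 3 was the highest for CBF1, CBF2, CBF3, COR15B and RD29A, and mutant array 1 for COR15A, KIN1/KIN2 and COR47. Mutant array 3 differed from the mean of the other mutant arrays by 0.73 log2 units for COR15B, 0.58 for CBF1 and 0.54 for RD29A, but by -0.28 for KIN1/KIN2 and -0.61 for COR47. Across all probe sets same-numbered arrays of the genotypes deviated together from their genotype means. Among the members, the deviations had the same sign for 5 of 8 in number 1, 1 of 8 in number 2 and 2 of 8 in number 3.

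**Figure D3:**
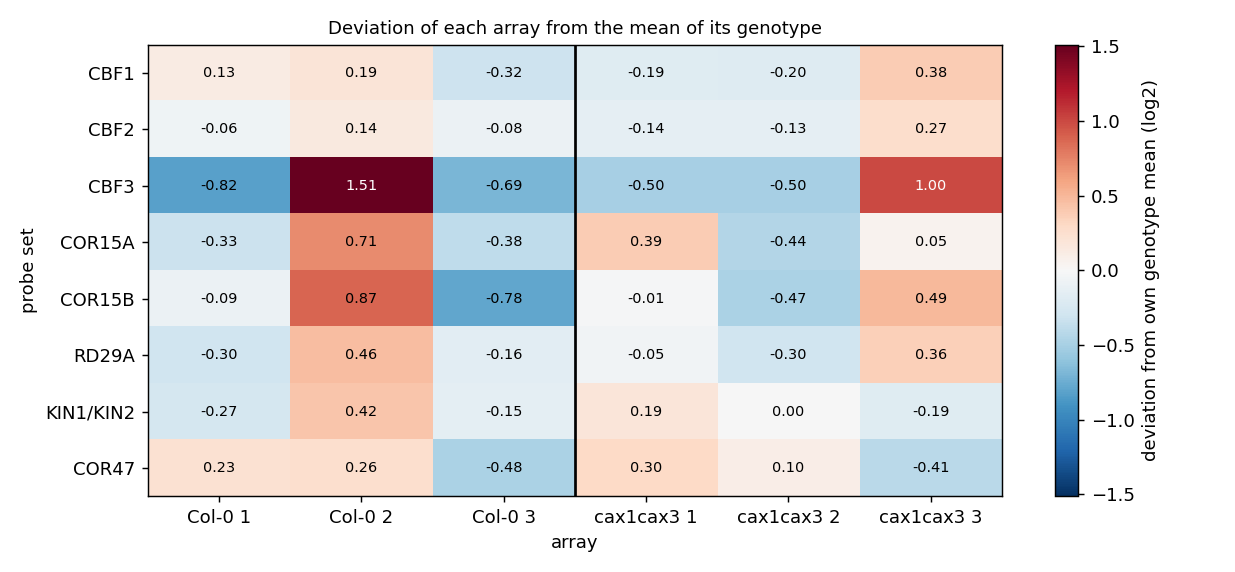
Deviation of each array (columns) from the mean of its own genotype for the 8 probe sets (rows), in log2 units, red above and blue below the mean. The column of Col-0 array 2 is above its genotype's mean in all 8 rows, up to 1.51 for CBF3, and cax1cax3 array 3 is above its mean for 6 of the 8.

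With wild-type array 2 left out, all 8 differences were positive, from 0.08 to 0.86 with a median of 0.45, where 51.7% of all probe sets were positive. None was called (limma adjusted p from 0.137 to 0.971), and 1.35% of all probe sets were. As this array held the highest wild-type value of all 8 members, leaving it out could only raise each difference. The count of positive differences is therefore no support for a higher level in the mutant. With any other single array left out, 4 or 5 of 8 were positive. With wild-type array 2 and mutant array 3 both left out, an alternative added after the values were seen, 6 of 8 were positive and none was called (limma adjusted p from 0.0927 for RD29A upwards). That comparison rests on 2 arrays of each genotype.

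COR15B was among the probe sets whose pattern over the 6 arrays was most like that of CBF3. Likeness was measured as the root mean square difference of the profiles after each was centred on its own mean. By this measure COR15B, with a difference of 0.52 log2 units, ranked 4th of the 22745 other probe sets, and COR15A ranked 230th with 0.77. KIN1/KIN2 ranked 1346th, RD29A 2934th and COR47 19700th. The named gene nearest to CBF3 was AT1G48330 (0.42), which read 8.08, 9.22 and 8.00 in the wild type and 7.47, 7.61 and 8.46 in the mutant, followed by AT5G38180 (0.51), COR15B, AT3G53980 (0.55) and SWEET4 (0.59). CBF1 (0.92) and CBF2 (0.94) were not among the near ones. The measure also depends on the size of the swings, so probe sets with small swings cannot rank near CBF3. Pearson correlations with CBF3 over the 6 arrays were 0.89 for COR15B, 0.38 for RD29A, 0.32 for CBF1 and 0.24 for CBF2. Those of the deviations from the genotype means were 0.88, 0.96, 0.72 and 0.88 in the same order. For COR15A, KIN1/KIN2 and COR47 the correlations over the arrays were 0.63, 0.55 and -0.21. Those of their deviations were 0.72, 0.52 and -0.05, so COR47 did not move with CBF3. CBF3 was singled out for this after its values were seen. The averaged profiles of the 3 CBF and of the 5 COR probe sets spanned 0.98 and 0.94 log2 units, short of the 1 log2 unit set for naming like genes, so none is named for them.

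The other genes of the pathway were only partly named by the annotation. Of 20 further cold-regulated genes listed, 4 were named, and 0 of these 4 were called by limma, 0 of them also at an unadjusted p under 0.05. All 4 differences were positive, with a median of 0.54. LTI30, a dehydrin gene, read 9.58, 10.45 and 9.32 in the wild type and 9.91, 9.95 and 10.92 in the mutant (difference 0.48, limma adjusted p = 0.568). As with CBF3, its high arrays were wild-type array 2 and mutant array 3. STZ, which encodes the zinc-finger repressor ZAT10, read 8.03, 7.86 and 8.19 in the wild type and 7.87, 8.99 and 9.03 in the mutant. Its difference was 0.60 (limma adjusted p = 0.358), and without mutant array 1 it was called (0.98, limma adjusted p = 0.0250).

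COR27 and AT4G33980, also of the cold-regulated list, had their lowest value on array 3 in both genotypes, as COR47 did. COR27, a gene that follows both cold and the circadian clock, read 10.03, 10.02 and 9.16 in the wild type and 10.45, 10.47 and 9.47 in the mutant. AT4G33980 read 9.78, 9.15 and 7.92 in the wild type and 9.85, 10.20 and 8.59 in the mutant. The circadian clock acts on CBF and COR transcripts by time of day, and of 14 clock genes listed GI was named. GI, a clock-associated gene with a strong daily rhythm, read 10.09, 10.01 and 8.24 in the wild type and 9.81, 9.79 and 10.53 in the mutant. Its difference of 0.60 (limma adjusted p = 0.603) rested on wild-type array 3 and was -0.01 without it. On wild-type array 2, where all 8 members were highest, GI read 10.01, beside 10.09 on array 1. The labels used here give no time of day, and the part of sampling time in the members' spread was not tested.

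**Figure D4:**
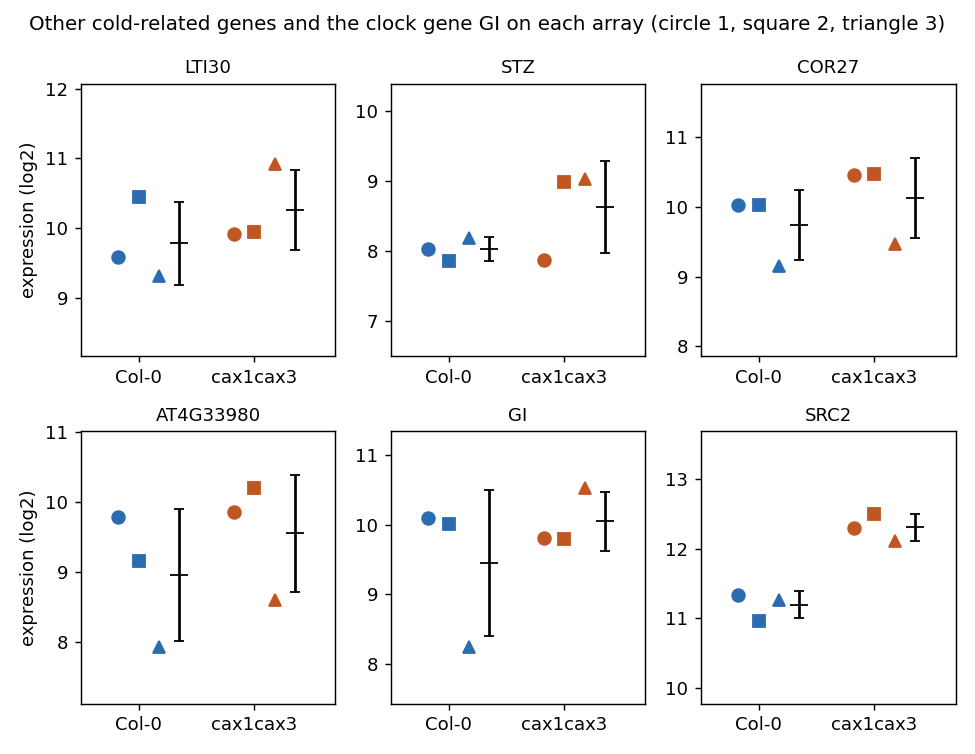
Log2 expression of further cold-related genes and of the clock gene GI on the 3 Col-0 (blue) and 3 cax1cax3 (orange) arrays, with mean and SD in black. COR27 and AT4G33980 are lowest on array 3 (triangles) in both genotypes, GI is low on Col-0 array 3 alone (8.24), and SRC2 is the one gene shown whose genotypes are separated with a called difference.

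Of 24 listed regulators of the CBF genes, CES, EIN3 and SIZ1 were named, and none was called by limma. All 4 of their probe sets, 2 of them of SIZ1, had an unadjusted p under 0.05, as did 19.5% of all probe sets. CES, a bHLH factor of brassinosteroid signalling that promotes CBF expression, read 5.72, 5.63 and 5.38 in the wild type and 4.80, 4.49 and 5.39 in the mutant (-0.68, limma adjusted p = 0.166). All these readings lay below the highest bacterial value of 5.81, and that of mutant array 2 also below the bacterial 95th percentile of 4.70. Without mutant array 3 CES was called (-0.93, limma adjusted p = 0.0259), on this signal near background. EIN3, an ethylene-signalling factor that represses CBF genes, had a difference of 0.39 (limma adjusted p = 0.158), and the 2 probe sets of SIZ1, a SUMO ligase that acts on the CBF activator ICE1, had differences of 0.34 and 0.31 (limma adjusted p = 0.133 and 0.157). None of the 14 listed genes of abscisic acid and dehydration, the 11 of touch and early stress or the 2 mutated genes was named, so these are not analysed here and the genotype labels had no check from CAX1 or CAX3.

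Genes of the wider protein family were drawn from the RefSeq names after the annotation had been seen. Of 8 genes named as late embryogenesis abundant or dehydrin proteins, LTI30 among them and the members left out, none was called by limma, 1 had an unadjusted p under 0.05 (LEA4-5), and the differences ran from -0.27 to 0.73 with a median of 0.10. The largest was that of LEA4-5 (0.73, limma adjusted p = 0.225), and without mutant array 3 it was 0.40. The wild-type means of 3 of the 8 lay below the bacterial 95th percentile of 4.70. Of 5 other genes named for cold or drought, SRC2 rose and none fell. SRC2, named for a cold-regulated gene of soybean, read 11.34, 10.97 and 11.27 in the wild type and 12.30, 12.49 and 12.11 in the mutant, so that every mutant array lay above every wild-type array. Its rise of 1.11 ± 0.15 (log2, SE) had a limma adjusted p of 0.0112, which became 0.0553 without mutant array 2.

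Among the organ markers named, only anther markers were called between the genotypes in the same samples. None of the 9 listed seed markers was named, so seed was not examined, and of 5 listed leaf markers only PRK was named. The 3 anther markers all had negative differences, and 2 of them, ATA27 (-3.00, limma adjusted p = 0.00209) and AT5G07230 (-0.71, limma adjusted p = 0.0391), fell. ATA27 went from 7.40 to 8.07 in the wild type to 4.65 to 4.86 in the mutant. In 4 of the 6 comparisons that dropped an array, AT5G07230 was no longer called (limma adjusted p as high as 0.151). On wild-type array 2, ATA27 and AT5G07230 were also at their highest wild-type values, 8.07 and 6.15. AMS, the remaining anther marker, was instead highest on wild-type array 1 (4.91). Its wild-type mean lay below the bacterial 95th percentile. The leaf marker PRK, an enzyme gene of carbon fixation, had a difference of -0.42 (limma adjusted p = 0.0793). The root markers EXPA7 and EXPA18 lay between 4.75 and 5.23 on all arrays, below the highest bacterial value of 5.81. The part of organ composition in the values of the CBF and COR genes was not tested.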

How the data were processed

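Total RNA (5 µg per sample, 15.0 µg of fragmented cRNA, per the labels) was hybridised to 1 Affymetrix array per sample, 3 per genotype. The deposited values are log2 expression per probe set, a scale read from their range of 3.35 to 14.5. GCOS 1.1.2 and RMA are named in the submitters' processing notes, with no settings in the sources used here. Of 22810 probe sets, 64 controls were excluded, and nothing was renormalized. Array medians ran from 7.03 to 7.08, and correlations between arrays from 0.962 to 0.993. The number of arrays limits the precision.

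Genotypes were compared with limma 3.58.1 (lmFit, eBayes; R 4.3.3) over all 6 arrays without covariates, p-values were adjusted by Benjamini-Hochberg across the 22746 probe sets, and a probe set under 0.05 is called. The platform annotation named COR15A, COR15B and COR47 singly and KIN1 with KIN2. The probe sets of CBF1, CBF2, CBF3 and RD29A were named by the rule that chose them. Other genes were named from the annotation, updated through a RefSeq table of TAIR10.1. No sequences were used, and the gene positions in that table served only to find neighbouring genes.

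Same-numbered arrays correlated in their deviations from the genotype means (0.43, 0.29 and 0.47), so the number was treated as pairing them and fitted as a block beside the main comparison. The members, lists and tests were chosen with earlier results of these data known. The genes named are the members, the called genes of each list (up to 4) or the gene with the largest difference where none was called, and others where said. LTI30, COR27, AT4G33980, EIN3, SIZ1 and AMS were named after their values were seen. The test was tried on simulated data with known changes.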

Additional observations from a re-analysis of the deposited data

How the results depend on the processing

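None of the 8 CBF and COR probe sets was called under any alternative run: the replicate block, quantile normalization, median centring, values raised to the bacterial 95th percentile, array weights, eBayes with a trend, each array left out, or wild-type array 2 and mutant array 3 left out together. CBF1 and CBF2 were among the dimmest 33.3% of probe sets, so the fit without these gave them no value. The replicate block changed no call among the genes named and raised all calls from 1279 to 2224. All calls numbered 445 with values raised to the bacterial percentile, 2846 with array weights, 337 with both arrays left out, and 255 to 1744 with 1 array left out. Among the other listed probe sets 3 were called, 1 with raised values, 5 with array weights and 1 to 5 with 1 array left out. The shares of all probe sets called in the same fits were 5.62%, 1.96%, 12.5% and 1.12% to 7.67%. Directions turned in some fits, and the cause was not tested. With 1 array left out CBF3 ranged from -1.18 to 0.079, COR15A from -0.094 to 0.46, COR15B from -0.72 to 0.11, KIN1 from -0.24 to 0.11 and GI from -0.0052 to 0.92. COR15A was -0.24 with array weights, and KIN1 was 0.20 with both arrays left out. CBF1, CBF2, RD29A and COR47 kept positive differences in all these fits. Mutant array 3 had the lowest array weight (0.34). With that array left out CBF1, CBF2 and RD29A were lower, at 0.19, 0.25 and 0.45, and COR47 was higher, at 0.56. SRC2 and AT5G07230 lost their calls with raised values (limma adjusted p = 0.0516 and 0.101), and CES and PRK gained calls with array weights (limma adjusted p = 0.0180 and 0.0409).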
